A study of Mus musculus with 10 samples.

Results

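The 9 genes described here encode actin and alpha-actinin isoforms: the actins Acta1, Actc1, Acta2, Actb and Actg1, and the alpha-actinins Actn1, Actn2, Actn3 and Actn4. They were taken by gene symbol and are 9 of the 23337 genes listed in the count files. Bulk RNA-Seq of poly-A RNA was carried out on left ventricle (LV) and skeletal muscle (SkM; the labels do not name the muscle). Each of the 10 libraries came from 1 tissue of 1 mouse, and the 5 mice were 17 weeks old. The LV and SkM libraries of 2 WT mice were compared with those of 3 E0del/+ mice, and both genotypes were on a hybrid background from C57BL/6 and 129SvEv parents. E0del/+ mice carry a heterozygous deletion of E0, a conserved element in intron 1 of Ttn, inherited from the C57BL/6 parent, and no other allele or treatment is named. Total counts per library ranged from 11010021 to 17484873 (median 14050602.5). Levels are given as CPM (a gene's raw count per 1000000 counts of its library), and as RPKM (CPM per kilobase of summed exon length) where genes are compared with each other.

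Actins polymerise into the thin filaments of the sarcomere and into the cytoskeleton of every cell type. Alpha-actinins crosslink actin filaments, and in striated muscle they anchor the thin filaments and the amino-terminal part of titin, the product of Ttn, at the Z-disc. Adult heart uses mainly the cardiac actin Actc1, adult skeletal muscle uses mainly the skeletal actin Acta1, and Actn3 is the alpha-actinin of fast skeletal fibres, whereas Actn2 is used in heart and in all skeletal fibres.

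The actin genes are close to each other in sequence, which bears on how well their reads can be assigned. Over aligned coding sequences, Acta1 was 86.3% identical to Actc1 and 85.4% identical to the smooth muscle actin Acta2, and the cytoplasmic actins Actb and Actg1 were 88.6% identical to each other. The first 36 coding bases from GENCODE M21 (build GRCm38) are shown because the amino terminus is where actin isoforms are usually told apart, and capitals mark the bases that differ from Acta1 (5 in Actc1, 10 in Acta2, 22 in Actb and 19 in Actg1). They lie in coding exons on the minus strand at chr8:123893662-123893697 (Acta1), chr2:114051996-114052031 (Actc1), chr19:34252518-34252553 (Acta2), chr5:142905651-142905686 (Actb) and chr11:120348056-120348091 (Actg1).
Acta1: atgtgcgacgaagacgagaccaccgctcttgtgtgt
Actc1: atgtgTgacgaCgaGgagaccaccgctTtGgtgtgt
Acta2: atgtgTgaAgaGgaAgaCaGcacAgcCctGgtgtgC
Actb: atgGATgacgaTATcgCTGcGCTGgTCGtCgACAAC
Actg1: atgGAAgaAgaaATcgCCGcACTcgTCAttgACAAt
Of all 50-base windows of the main transcript, 0% in Actc1, 2.22% in Acta1 and 0.352% in Acta2 also occurred in a transcript of another gene. The share was 14.2% in Actb and 56.7% in Actg1, and it covered 100% of the Actg1 coding windows, mostly through processed copies such as Gm12715 and Gm8399. The length of the reads is not given in the sources used here, and with 75-base windows the shares were 54.5% in Actg1, 2.60% in Actb and 0.437% in Acta1. Counts of Actg1 are therefore uncertain at either length, and those of Actb mainly if reads were short, because how reads with several matches were counted is not given in the sources used here. The 4 alpha-actinins shared at most 0.434% of their windows with another gene. Actn4 shares 332 exon bases with Capn12 on the opposite strand, so reads from those bases cannot be told apart without strand.

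Ttn, the targeted gene, stood at 7959 and 9344 CPM in the 2 WT LVs and at 7737, 5560.1 and 6597 CPM in the 3 E0del/+ LVs. Every E0del/+ LV was below both WT LVs, a separation in either direction that 15.4% of the 13420 genes tested in LV showed. In SkM, Ttn stood at 24205 and 15856 CPM in WT and at 20092, 18854 and 13585 CPM in E0del/+, and the groups overlapped. The log2 fold change of E0del/+ over WT was -0.45 (SE 0.27) in LV and -0.17 (SE 0.24) in SkM, with adjusted p = 0.997 and 1.00 by edgeR. The LV value was -0.25 (SE 0.39) without WT LV replicate 2, which had the highest Ttn of the LVs and is described next, and -0.28 (SE 0.17) without E0del/+ LV replicate 2.

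The WT LV replicate 2 library stood apart from the other 4 LVs and is therefore given separately. It held skeletal muscle transcripts: Myh4, the heavy chain of the fastest fibres, was at 18473 CPM there and at 70.3 to 81.7 CPM in the other LVs. The summed level of 9 fast fibre genes (Myh1, Myh2, Myh4, Tnnt3, Tnni2, Tnnc2, Mylpf, Atp2a1 and Pvalb) was 37133 CPM in this library, and 149, 171, 158 and 157 CPM in WT LV replicate 1 and E0del/+ LV replicates 1 to 3. All 9 had counts in every library, and Myh4 was the most abundant. As a percentage of the SkM mean, the 9 genes ranged from 16.4% to 24.8% in WT LV replicate 2, where Actn3 was at 22.4% and Acta1 at 24.1%. In the 4 other LVs the 9 genes ranged from 0.0840% to 0.229% of the SkM mean and Actn3 from 0.0895% to 0.0996%. Acta1 was higher, at 1.10%, 1.51%, 1.48% and 3.76%. Ventricle genes were present in all 5 LVs, with Myh6, the main heavy chain of the adult mouse ventricle, at 37356 CPM in WT LV replicate 2 and at 43022 to 54803 CPM in the others.

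**Figure D1:**
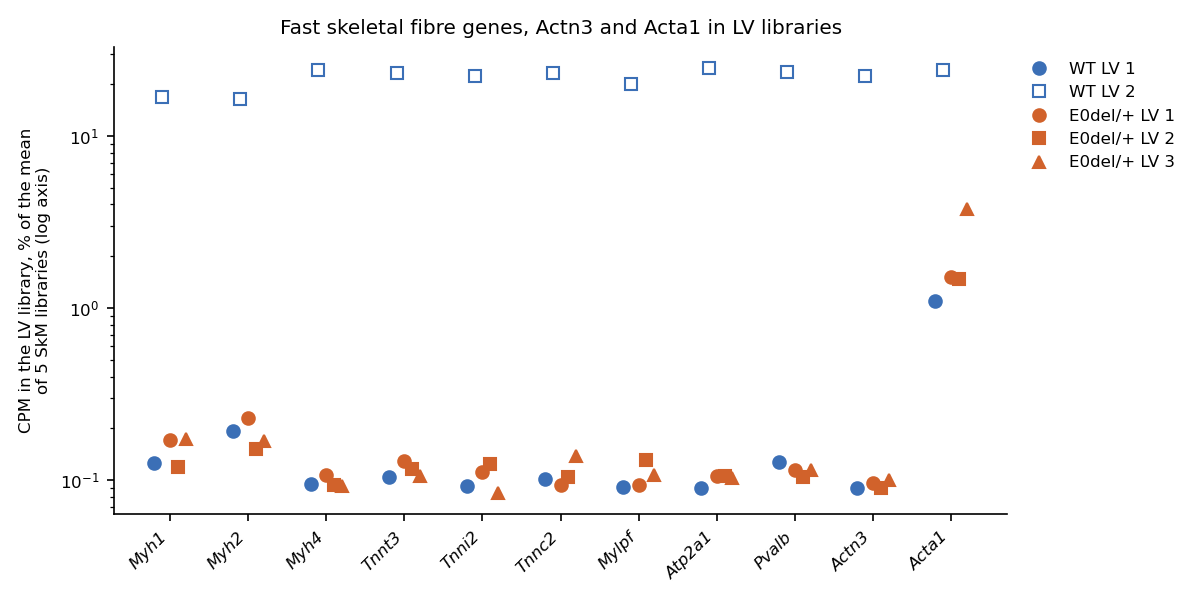
CPM of 9 fast skeletal fibre genes, Actn3 and Acta1 in each of 5 LV libraries, as a percentage of the mean of the 5 SkM libraries (log axis, 1 point per library). WT LV replicate 2 lies between 16.4% and 24.8% for all 11 genes, and Acta1 is the only gene above 1% in the other 4 LVs.

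The striated muscle actins changed places between the tissues. Acta1 stood at 434 CPM in WT LV replicate 1 and at 593, 581 and 1482 CPM in E0del/+ LV replicates 1 to 3, with 9479.7 CPM in WT LV replicate 2. In SkM it stood at 37558 and 44397 CPM in WT and at 37398, 40496 and 36987.5 CPM in E0del/+. The highest of the 4 LVs, E0del/+ replicate 3, was still far below the lowest SkM. In RPKM, Acta1 was the most abundant gene of all in each SkM library, at 27472 ± 2190 (SD, n = 5), against 539 ± 334 in the 4 LVs. Paired by mouse over 4 mice, Acta1 was higher in SkM by 6.46 on the log2 scale (SE 0.43, adjusted p = 1.57e-05, edgeR). In bulk tissue, fewer cells of a type and less RNA per cell cannot be told apart.

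Actc1, the actin of heart muscle, stood at 13049.8 CPM in WT LV replicate 1 and at 10932, 11886 and 15228 CPM in the E0del/+ LVs, with 9438 CPM in WT LV replicate 2. In SkM it stood at 2060.2 and 148 CPM in WT and at 1012, 1233 and 95.01 CPM in E0del/+. The LVs lay close together, whereas WT SkM replicate 2 and E0del/+ SkM replicate 3 (1 of each genotype) were far below the other 3 SkM libraries. In RPKM, Actc1 averaged 9190 ± 1332 (SD, n = 4) in the LVs, where it ranked between 1 and 3 among all genes, and 654 ± 589 (SD, n = 5) in SkM. The paired log2 fold change was -3.28 (SE 0.77, adjusted p = 0.00748, edgeR), lower in SkM in 4 of 4 mice, and -2.45 (SE 0.28) without E0del/+ mouse 3, whose SkM had the lowest Actc1.

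As a share of Acta1 plus Actc1 counted per kilobase, Acta1 made up 3.12% in WT LV replicate 1 and 4.998%, 4.53% and 8.62% in E0del/+ LV replicates 1 to 3. It made up 94.6% and 99.7% in the WT SkM libraries and 97.3%, 97.0% and 99.7% in the E0del/+ SkM libraries. No LV share came near a SkM share, except that WT LV replicate 2 stood between them at 49.3%. The paired difference was 91.8 ± 0.627 percentage points (SD of 4 mice), in the same direction in 4 of 4 mice, with p = 0.125 by an exact two-sided permutation of signs, the smallest that 4 mice allow. Counting error was small beside this, as the widest 95% Wilson interval of any share in any library spanned 2.47 percentage points; such intervals cover counting error only.

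**Figure D2:**
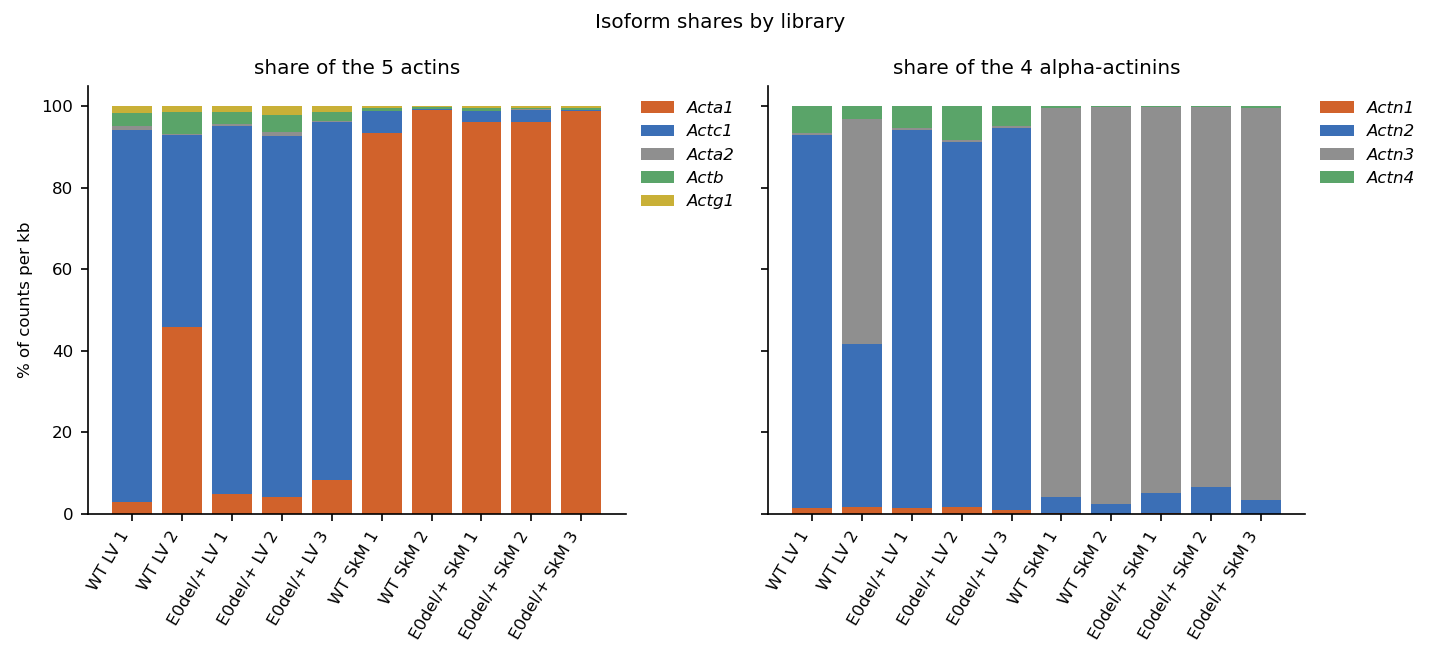
Share of each isoform among the 5 actins (left) and the 4 alpha-actinins (right), in percent of counts per kilobase, with 1 bar per library. Actc1 and Actn2 fill most of 4 LV bars, Acta1 and Actn3 most of the SkM bars, and WT LV replicate 2 holds 45.9% Acta1 and 55.1% Actn3.

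Of the alpha-actinins of the sarcomere, Actn3 differed between the tissues by more than Acta1, and Actn2 by less than Actc1. Actn3 stood at 11.1 CPM in WT LV replicate 1 and at 11.9, 11.3 and 12.4 CPM in the E0del/+ LVs, with 2787 CPM in WT LV replicate 2. In SkM it stood at 11753 and 13212 CPM in WT and at 12166, 12990.0 and 12079 CPM in E0del/+. Both tissues gave a narrow range, with an SD of 5.003% of the mean in the 4 LVs and 5.05% in the 5 SkM libraries. In these LVs Actn3 was at 0.0895% to 0.0996% of the SkM mean. This lies within the range of the 9 fast fibre genes in the same LVs, 0.0840% to 0.229%. The source of these counts in LV was not tested. The paired log2 fold change was 10.68 (SE 0.31, adjusted p = 4.05e-07, edgeR), which put Actn3 among the 12 most abundant genes of every SkM library by RPKM.

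Actn2, the alpha-actinin common to heart and skeletal fibres, stood at 2522 CPM in WT LV replicate 1 and at 2689, 2425 and 2916 CPM in the E0del/+ LVs, with 2116 CPM in WT LV replicate 2. In SkM it stood at 530.2 and 354 CPM in WT and at 670.1, 942 and 449.9 CPM in E0del/+. Actn2 was thus lower in SkM than in LV in each mouse but was still abundant there: in RPKM it averaged 884 ± 72.0 (SD, n = 4) in LV and 197 ± 76.7 (SD, n = 5) in SkM. The paired log2 fold change was -1.43 (SE 0.28, adjusted p = 0.00320, edgeR). Actn3 made up 0.461% of Actn2 plus Actn3 per kilobase in LV and 95.2% in SkM (means of 4 mice), and 57.9% in WT LV replicate 2. Single SkM libraries gave 95.9% and 97.5% in WT and 94.99%, 93.5% and 96.6% in E0del/+. This difference of 94.8 ± 1.33 percentage points (SD of 4 mice) had the same direction in 4 of 4 mice, with p = 0.125 by the exact permutation of signs, again the smallest possible.

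The isoforms of smooth muscle and non-muscle cells were minor in both tissues, and more so in SkM. Acta2, the actin of vascular smooth muscle, ranged from 83.4 to 174 CPM in the 4 LVs and from 10.9 to 37.8 CPM in SkM, without overlap. Its paired log2 fold change was -1.42 (SE 0.19, adjusted p = 0.000506, edgeR), and its share of the 5 actins per kilobase was 0.667% in LV and 0.0582% in SkM. Actn1 and Actn4, the non-muscle alpha-actinins of stress fibres and cell adhesions, ranged from 41.3 to 60.3 and from 192 to 283 CPM in the 4 LVs, against 6.46 to 22.0 and 28.9 to 76.2 CPM in SkM. Their paired log2 fold changes were -0.97 (SE 0.14, adjusted p = 0.000683) and -1.36 (SE 0.17, adjusted p = 0.000319) by edgeR. Together they made up 7.69% of the alpha-actinins per kilobase in LV and 0.436% in SkM. Markers of other cells also differed between the tissues. The 7 smooth muscle markers (Myh11, Tagln, Cnn1, Smtn, Actg2, Myl9, Mylk) summed to 645, 493, 722 and 467 CPM in WT LV replicate 1 and the E0del/+ LVs, and to 211, 143, 165, 183 and 224 CPM in the WT and E0del/+ SkM libraries. The 5 endothelial markers (Pecam1, Cdh5, Kdr, Tie1, Vwf) summed to 1499, 1418, 2077 and 1187 CPM in the same LVs and to 255, 111, 255, 245 and 211 CPM in SkM. All of these markers had counts in every library, with Smtn and Cdh5 the most abundant. The 4 pericyte markers (Rgs5, Pdgfrb, Cspg4, Notch3; Rgs5 the most abundant) summed to 793, 624, 767 and 452 CPM in these LVs and to 185, 58.5, 138, 135 and 104 CPM in SkM, and the 6 fibroblast markers (Col1a1, Col1a2, Col3a1, Pdgfra, Dcn, Postn) to 1553, 1199, 1555 and 856 CPM and to 464, 137, 187, 331 and 482 CPM. All 5 endothelial, 4 pericyte and 6 fibroblast markers were lower in SkM by CPM in 4 of 4 mice, as were 4 of the 7 smooth muscle markers (Myh11, Smtn, Actg2, Mylk) and 63.9% of all 13375 genes tested. Smtn made up most of the smooth muscle sum in LV (459 CPM of 645 in WT replicate 1), and Cnn1 was higher in SkM in WT mouse 1 (5.47 against 1.69 CPM), as were Tagln (38.1 against 26.3), Cnn1 (2.18 against 1.66) and Myl9 (22.2 against 21.4) in E0del/+ mouse 3. The part of these markers in the result was not tested.

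The cytoplasmic actins differed less between the tissues. Actb ranged from 468 to 770.3 CPM and Actg1 from 238 to 395 CPM in the 4 LVs, against 238 to 371 and 133 to 190.0 CPM in SkM. Their paired log2 fold changes, -0.27 (adjusted p = 0.223) and -0.22 (adjusted p = 0.208), did not pass the threshold of 0.05 in edgeR with TMM scaling, but with total counts as the only scaling they were -0.92 (adjusted p = 0.00677) and -0.87 (adjusted p = 0.00182), lower in SkM. Actb made up 66.0% of Actb plus Actg1 per kilobase in LV and 65.1% in SkM, a difference of -0.895 ± 5.61 percentage points (SD of 4 mice) with 2 of 4 mice in each direction (p = 0.75, exact permutation of signs). The shared sequence of Actg1 and Actb described above also bears on this ratio.

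Across all genes, SkM and LV differed widely, and the members have to be read against that. In edgeR with TMM, 2 of the 9 genes were higher in SkM, 5 were lower and 2 did not pass; of the 13375 genes tested, 29.8% were higher and 31.5% lower. All 9 passed the filter on low counts. Total counts without TMM moved the median log2 fold change of all genes from -0.02 to -0.67, and then 2 members were higher and 7 lower, with 12.7% of all genes higher and 57.4% lower. Higher genes were 48.7% of calls with TMM and 18.1% without. With total counts the paired log2 fold changes were 5.81 for Acta1, -3.94 for Actc1, -2.07 for Acta2, -1.62 for Actn1, -2.08 for Actn2, 10.03 for Actn3 and -2.01 for Actn4, and values with TMM are to be read beside this shift of all genes. With WT mouse 2 included, Acta1 was 5.86 and Actn3 9.93.

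**Figure D3:**
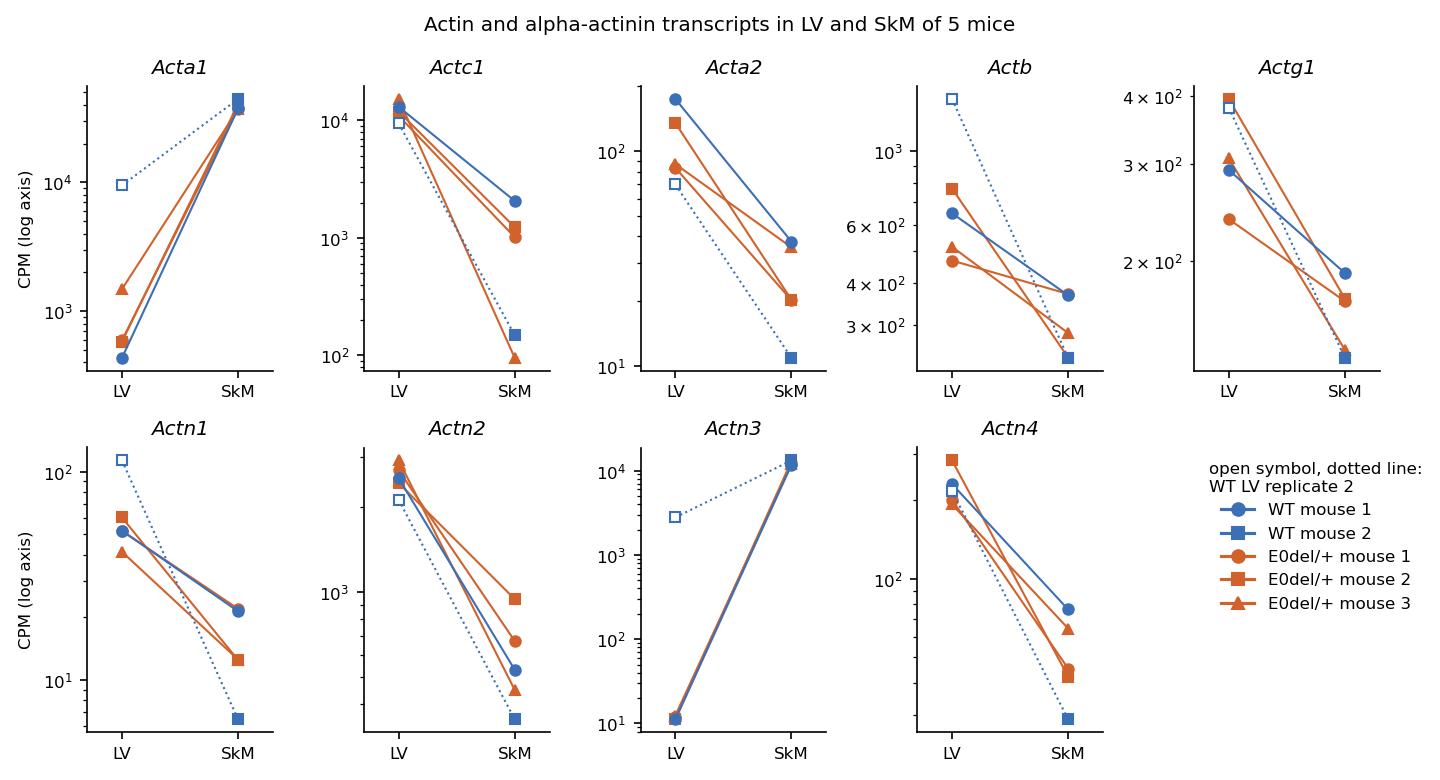
CPM of the 9 genes in LV and SkM (log axes with a range for each panel), with a line joining the 2 libraries of each mouse and an open symbol for WT LV replicate 2. Acta1 and Actn3 are higher in SkM in all 5 mice, and the other 7 genes are lower in CPM.

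By mean RPKM over the 4 LVs, the actins ran in the order Actc1 (9190), Acta1 (539), Actb (318), Actg1 (163) and Acta2 (67.3). In SkM the order was Acta1 (27472), Actc1 (654), Actb (159), Actg1 (84.5) and Acta2 (14.0), but Actc1 ranged there from 68.4 to 1482 RPKM, so it did not differ from Actb or Actg1 beyond its spread. In LV the ranges of Acta1 (303 to 1034) and Actb (248 to 408) also overlapped. The alpha-actinins ran Actn2 (884), Actn4 (59.4), Actn1 (13.8) and Actn3 (4.09) in LV, and Actn3 (4357), Actn2 (197), Actn4 (13.5) and Actn1 (4.001) in SkM, with no overlap between neighbours in RPKM. The summed actin RPKM was 8.95 to 12.0 times the summed alpha-actinin RPKM in the 4 LVs and 5.93 to 6.58 times in SkM, so the balance of the families differed along with the isoforms. Actins took 1.23% to 1.76% of all counts in the 4 LVs and 3.75% to 4.49% in SkM.

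The low Actc1 of WT SkM replicate 2 and E0del/+ SkM replicate 3 went with low slow fibre transcripts. The 5 slow fibre genes (Tnnt1, Tnni1, Myh7, Atp2a2 and Tpm3) summed to 1545 and 186 CPM in the WT SkM libraries and to 2223, 2781 and 379 CPM in E0del/+. Myh7, the slow heavy chain, was the most abundant in 4 of the 5 libraries, at 824 and 73.8 CPM in WT and 1193, 1548 and 160 CPM in E0del/+; none of the 5 genes was at 0. The same 2 mice lacked Xist expression, with 0.343 and 0.422 CPM in SkM against 278 to 397 CPM in the other 3, and had 94.1 and 108 CPM of the Y-linked Ddx3y. The sex of the mice is not in the labels, and WT SkM replicate 1 held 12.5 CPM of Ddx3y beside 397 CPM of Xist. The sum of 7 ventricle genes (Myh6, Tnni3, Tnnt2, Mybpc3, Ryr2, Pln, Myl3) was also lowest in these 2 libraries, at 88.4 and 111 CPM, against 187, 440.1 and 309 CPM in WT SkM replicate 1 and E0del/+ SkM replicates 1 and 2. Single genes differed: Myh6, Myl3 and Mybpc3 had their 2 lowest values there, but Tnnt2 was lowest in WT SkM replicate 1 (7.99 CPM), Ryr2 was lowest in E0del/+ SkM replicate 2 (1.93 CPM), and Pln and Tnni3 were above WT SkM replicate 1 in E0del/+ SkM replicate 3. All 7 had counts in every SkM library, and the most abundant was Myh6 in 3 of the 5 (37.7, 214 and 39.7 CPM in WT replicate 2 and E0del/+ replicates 1 and 3) and Myl3, which slow skeletal fibres also use, in the other 2 (85.7 and 146 CPM in WT replicate 1 and E0del/+ replicate 2). Relative to the LV mean the medians of the 7 genes were 0.114% to 0.391%, whereas Actc1 was at 0.744% to 16.1% and Actn2 at 13.4% to 35.7%. The highest of the 7 in each library was Myl3, at 0.618% to 3.90%, and in E0del/+ SkM replicate 3 it was above Actc1 (0.994% against 0.744%). The part of slow fibre genes, ventricle genes and Xist expression in the spread of Actc1 was not tested.

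**Figure D4:**
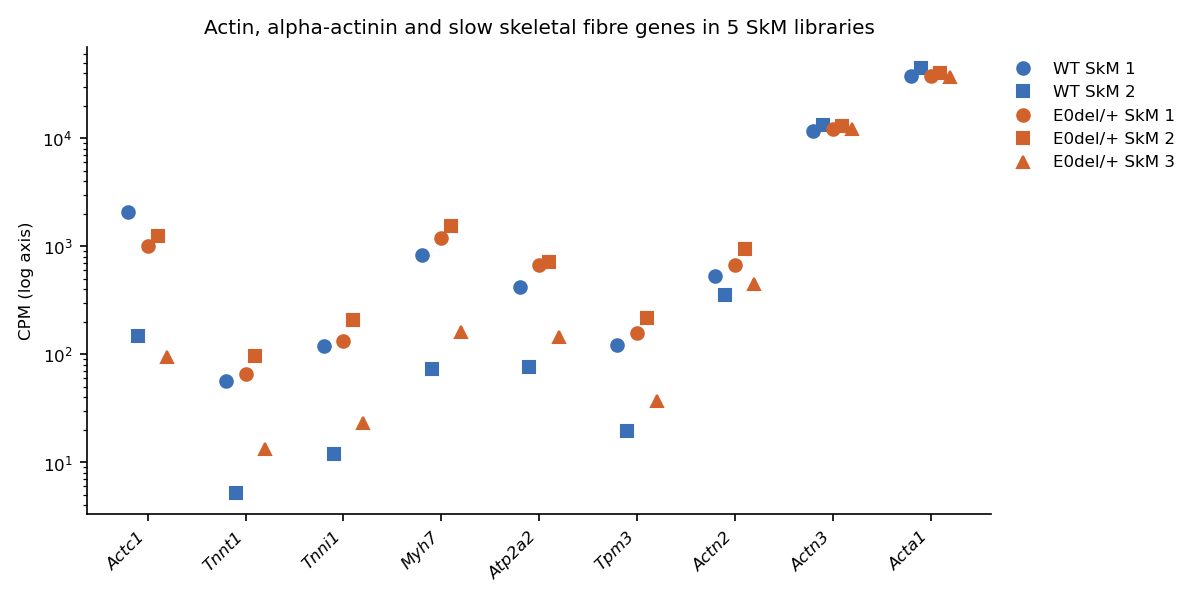
CPM (log axis) of Actc1, 5 slow skeletal fibre genes, Actn2, Actn3 and Acta1 in the 5 SkM libraries, 1 point per library. WT SkM replicate 2 and E0del/+ SkM replicate 3 are lowest for Actc1, Actn2 and the slow fibre genes, while Acta1 and Actn3 vary little.

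In LV, E0del/+ against WT gave 0 calls in edgeR among 13420 genes (0%), members included, with 564 genes at an unadjusted p under 0.05 and 0 calls (536 unadjusted) in DESeq2. Of the members, Acta1, Actb, Actn1 and Actn3 were among those 564, with log2 fold changes of -2.58, -0.94, -0.79 and -7.01 and adjusted p = 0.997 each by edgeR. These 4 rest on WT LV replicate 2, in which each was above all other LVs. Without that library their log2 fold changes were 1.07 (SE 0.57), -0.17 (SE 0.32), -0.03 (SE 0.22) and 0.10 (SE 0.27), a reversal for Acta1 and Actn3, again with 0 calls in edgeR (104 genes unadjusted) and adjusted p = 1.00. When WT LV replicate 2 was instead the only WT library, 578 of 14050 genes were called (4.11%), 574 of them lower in E0del/+, and these 4 were the members among them. A lone WT library is assumed to vary like the E0del/+ libraries.

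For the cardiac isoforms the LV genotype contrast was small with and without that library. Actc1 gave 0.13 (95% interval -0.50 to 0.75) with 5 LVs and -0.03 (-0.93 to 0.88) without it on the log2 scale, and Actn2 gave 0.16 (-0.38 to 0.69) and 0.10 (-0.68 to 0.88). These intervals do not show that the genotypes are alike. Acta2 alone among the members had an interval that left out 0 once WT LV replicate 2 was removed: it stood at 174 CPM in WT LV replicate 1 against 83.4, 135 and 86.8 CPM in E0del/+, a log2 fold change of -0.79 (SE 0.26, unadjusted p = 0.0104, adjusted p = 1.00, edgeR). WT LV replicate 2, however, had the lowest Acta2 of all, at 69.7 CPM. Markers of several other cell types followed Acta2 in part. The 4 pericyte genes summed to 793 and 484 CPM in the WT LVs and to 624, 767 and 452 CPM in E0del/+. Each of the 4 had its highest 2 values in WT LV replicate 1 and E0del/+ LV replicate 2, as Acta2 did. The endothelial sum (1499 and 1035 CPM in WT; 1418, 2077 and 1187 CPM in E0del/+) and the fibroblast sum (1553 and 997 CPM; 1199, 1555 and 856 CPM) were highest in the same 2 libraries. So were Pecam1, Cdh5, Kdr, Tie1, Col1a2, Col3a1 and Postn, but other genes of these lists differed. Vwf, Pdgfra and Dcn were higher in E0del/+ LV replicate 1 (182, 74.1 and 425 CPM) than in WT LV replicate 1 (157, 61.2 and 419). Col1a1 was higher in WT LV replicate 2 (185 CPM) than in E0del/+ LV replicate 2 (172). The leukocyte sum was also higher in E0del/+ LV replicate 1 (161 CPM) than in WT LV replicate 1 (141). The smooth muscle markers were divided: Smtn, Myh11 and Mylk had their highest 2 values where Acta2 did, but Tagln (51.0 CPM), Myl9 (48.8), Cnn1 (3.24) and Actg2 (17.3) were highest in WT LV replicate 2, where Acta2 was lowest. The part of these cells in the result was not tested.

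In SkM, edgeR called 0 of 13154 genes between the genotypes (0%), with 114 genes and 0 members at an unadjusted p under 0.05, and DESeq2 called 0 (151 genes and 1 member unadjusted). Acta1 gave -0.11 (95% interval -0.67 to 0.46) and Actn3 -0.01 (-0.52 to 0.50) on the log2 scale, the narrowest intervals of the 4 striated muscle isoforms in SkM. Actc1 gave -0.39 with an interval from -3.53 to 2.76, and went to 2.28 without WT replicate 1 and to -1.26 without WT replicate 2. With Xist expression as a block, added after the data were seen, Actc1 was -0.75 (SE 0.16, unadjusted p = 0.00654, adjusted p = 1.00, edgeR), whereas blocking on the batch of the labels gave 1.01. Actn2 gave 0.67 (-0.19 to 1.53), and its WT and E0del/+ values overlapped because E0del/+ replicate 3 at 449.9 CPM lay below WT replicate 1 at 530.2 CPM. Over the settings run, the Actn2 value ranged from 0.33 to 0.87.

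With the batch of the labels as a block, which pairs WT and E0del/+ mice 1 and 2, edgeR called 5 genes in LV (0.0373%; Ddx3y, Eif2s3y, Kdm5d, Mstn and Uty) and 1 in SkM (0.0076%; Eif2s3y), none a member; they are named because they are few. All but Mstn are Y-linked. All were lower in E0del/+ in the fit, where E0del/+ mouse 3 has no partner. In LV this rests on WT mouse 2: Ddx3y stood at 0.384 and 114 CPM in the WT LVs and at 0.325, 1.27 and 109 CPM in E0del/+. Mstn, a gene of skeletal muscle, was at 43.3 CPM in WT LV replicate 2 and at 0.325 to 0.908 CPM in the other LVs. CPM of WT and E0del/+ did not overlap for 0 of the 9 members in either tissue, where 15.4% of genes in LV and 11.4% in SkM were so separated.

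**Figure D5:**
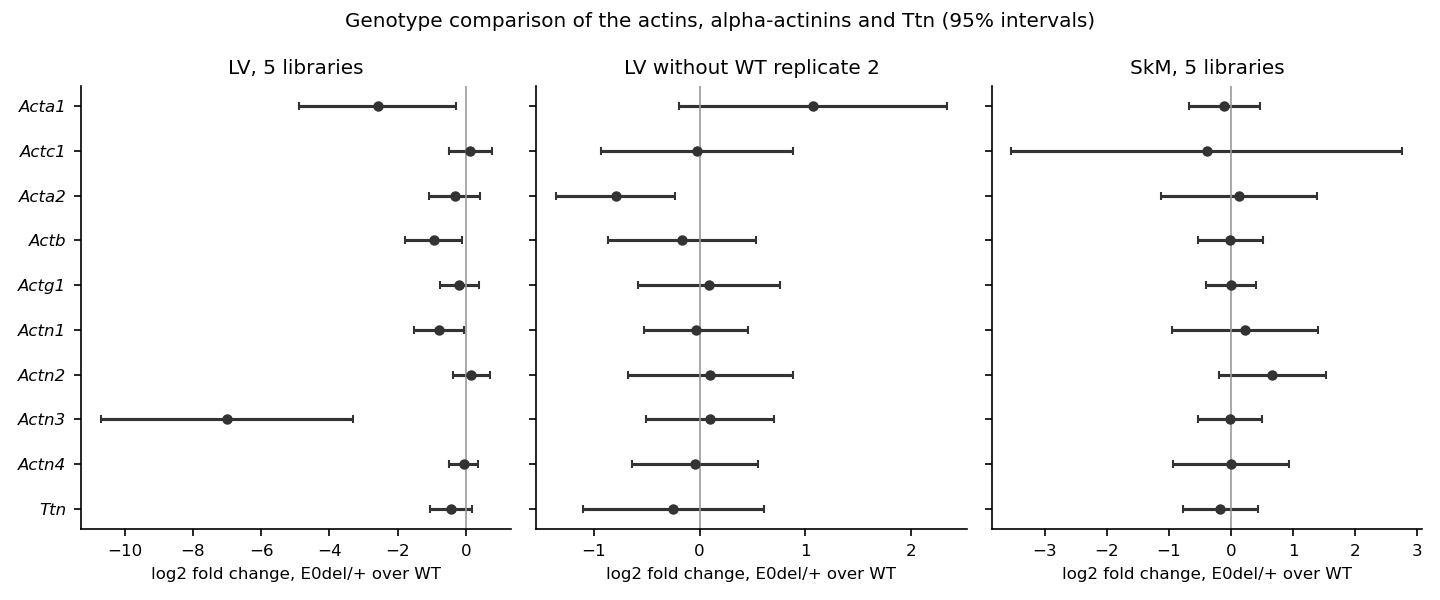
Log2 fold change of E0del/+ over WT (points) with 95% intervals from edgeR for the 9 genes and Ttn, in LV, in LV without WT replicate 2 and in SkM; the horizontal axes differ. The intervals of Acta1 and Actn3 in LV move from below 0 to across 0 when WT LV replicate 2 is left out.

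The test of whether the genotype contrast differed between the tissues did not pair the libraries of a mouse, and blocking on the mouse was run as an alternative only. It gave 0 calls among 14327 genes in edgeR (0%), with 477 genes at an unadjusted p under 0.05. DESeq2 gave 1 call (502 genes unadjusted), the fast heavy chain Myh4, named because it was the single call. Myh4 was at 18473 CPM in WT LV replicate 2, 70.3 to 81.7 CPM in the other LVs and 70877 to 80026 CPM in SkM. Actn3 was the only member of the 477, with a log2 difference of 6.96 (adjusted p = 1.00, edgeR), and without WT LV replicate 2 this was -0.15 (0 calls, 129 genes unadjusted). Acta1 likewise went from 2.42 to -1.22.

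The 6 isoform shares were also compared between the genotypes. In LV, Actb as a share of Actb plus Actg1 was 69.0% and 79.1% in WT and 66.3%, 66.2% and 62.6% in E0del/+, and this was the single case without overlap among the 6 shares in the 2 tissues. The means were 74.0% ± 7.15 (SD, n = 2) and 65.0% ± 2.07 (SD, n = 3), with p = 0.1 by an exact permutation of the labels, the smallest that 2 against 3 allows. Without WT LV replicate 2, which held the most Actb, the difference went from -8.97 to -3.91 percentage points. All other shares overlapped, with exact p from 0.3 to 1. Acta1 of Acta1 plus Actc1 in SkM was 97.2% ± 3.54 (SD, n = 2) in WT and 98.0% ± 1.52 (SD, n = 3) in E0del/+ (p = 0.9, exact permutation).

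Genes with profiles most like each member were taken over the 9 libraries other than WT LV replicate 2, by the root mean square difference of centred log2(CPM + 0.5) among 8612 genes with a mean of at least 10 CPM. Actn3 was nearest to Atp2a1 (0.07), the calcium pump of fast fibres, Myh4 (0.09) and Ryr1 (0.21), the calcium release channel of skeletal muscle. Acta1 was nearest to Kcnc1 (0.23), Cacng6 (0.28) and Tmem52 (0.30), all much less abundant. Actc1 had no close match, the nearest being the lncRNA C130080G10Rik (0.48), then Cyfip2 (0.68) and Casq2 (0.76), the calsequestrin of heart and slow fibres. C130080G10Rik lies on the plus strand at chr2:114054396-114061502, 1584 bases from Actc1, which is on the minus strand at chr2:114047289-114052811. It stood at 115 to 190.3 CPM in the 4 LVs, at 15.9 and 0.515 CPM in WT SkM and at 5.29, 6.20 and 0.282 CPM in E0del/+ SkM, lowest in the same 2 SkM libraries as Actc1. The nearest genes were Enah (0.18), Plxna4 and Plxna2 for Actn2; Plekhg3 (0.20), Nid1 and Atp2b4 for Acta2; Tap2 (0.10), Serpinb9 and Os9 for Actn1; and Tinagl1 (0.11), Plekhg3 and Coro1c for Actn4. Actb was nearest to Senp1 (0.08), Rrnad1 and Srsf7, Actg1 to Myo1e (0.12), Srrt and Rhog, and with 0.20 between them Actb and Actg1 were the closest pair of members.

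The promoters of the members were read from RefSeq (GRCm38.p6), where 7 of the 9 symbols matched, because the muscle actins differ so widely between tissues; Actb and Actn3 are named only. The CArG box, the element that serum response factor binds, was searched on both strands in the 250 bases before each start and was present in 482 of 32851 promoters (1.47%). Acta1, Actc1 and Actg1 each held 1, beginning 73, 47 and 90 bases before the RefSeq start, and no match was present in this window of Acta2, Actn1, Actn2 or Actn4. The exon coordinates deposited with the counts start these 3 genes further downstream, at chr8:123894736, chr2:114052811 and chr11:120348484. Distances from those starts would be longer. All 3 matches were CC, then only A or T, then GG. Acta2 held the similar sequences ccctatatgg and ccttgtttgg, which were not counted. The lack of a match there therefore does not show that no such element is present. The 150 bases before the start are shown 5′ to 3′ for the 3 matches, with the CArG box in capitals, on the minus strand at chr8:123894776-123894925, chr2:114052876-114053025 and chr11:120348496-120348645. A match describes the letters only.
Acta1: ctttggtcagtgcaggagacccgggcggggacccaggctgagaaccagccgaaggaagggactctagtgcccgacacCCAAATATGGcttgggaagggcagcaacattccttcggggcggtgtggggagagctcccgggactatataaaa
Actc1: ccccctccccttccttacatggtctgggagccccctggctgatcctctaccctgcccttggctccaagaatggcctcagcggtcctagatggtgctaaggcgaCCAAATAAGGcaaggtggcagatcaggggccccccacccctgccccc
Actg1: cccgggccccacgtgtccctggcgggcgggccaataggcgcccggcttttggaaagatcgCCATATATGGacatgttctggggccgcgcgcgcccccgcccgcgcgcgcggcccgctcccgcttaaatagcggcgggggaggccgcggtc
Of the 3 genes with a match, Acta1 was higher in SkM, Actc1 was higher in LV and Actg1 did not pass the test with TMM. The part of this element in the difference between the tissues was not tested. Other motifs were more common among all promoters: TATAAA (12.4%; in Acta1), CATTCC, the core of the element bound by TEAD factors (12.6%; in Acta1, Acta2 and Actn4), GGGCGG (32.7%; in Acta1, Actg1, Actn1, Actn2 and Actn4) and the E-box CANNTG (66.2%; in 6 of 7, not Actc1). None of these overlapped a CArG box.

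Genes that act on actin filaments or with alpha-actinins were followed as 4 lists in the paired comparison of SkM with LV, where 29.8% of all genes were higher and 31.5% lower with TMM, and 12.7% and 57.4% with total counts. Of 30 measured genes of filament ends and turnover, 11 were higher, 14 lower and 5 did not pass (7, 18 and 5 with total counts), with a median log2 fold change of -0.42 against -0.02 for all genes (-1.07 against -0.67 with total counts). Tmod4, the tropomodulin of skeletal muscle that caps pointed ends, was at 477 to 686 CPM in SkM and 25.5 to 38.0 CPM in LV (log2 4.66, SE 0.15, adjusted p = 5.13e-07, edgeR). Lmod2, the leiomodin of heart that elongates pointed ends, was at 27.9 to 90.7 CPM in SkM and 431 to 1026 CPM in LV (-2.44, SE 0.35, adjusted p = 0.000665, edgeR). Lmod1 (4.398, and 3.77 with WT mouse 2 included), Pfn2 (2.81), Capza2 (2.05) and the muscle cofilin Cfl2 (1.17) were also higher in SkM, and the formin Daam1 (-2.22) and the severing protein Gsn (-1.34) were lower. Gsn did not pass when E0del/+ replicate 1 (-0.96), WT replicate 1 (-1.32) or E0del/+ replicate 2 (-1.18) was left out.

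Of 15 measured genes of actin folding and modification, 11 were higher in SkM, 0 lower and 4 did not pass with TMM, but with total counts 2 were higher and 6 lower (all genes: 29.8% higher and 31.5% lower with TMM, 12.7% and 57.4% with total counts). The list median was 0.40 with TMM and -0.26 with total counts. Setd3, the methyltransferase that modifies a histidine of actin, had a log2 fold change of 0.89 (SE 0.12, adjusted p = 0.000572, edgeR), Cct6a, a subunit of the chaperonin that folds actin, 0.98 and Vbp1, a subunit of prefoldin, 0.75. The chaperonin subunits Tcp1 (0.62), Cct5 (0.43), Cct2 (0.39) and Cct7 (0.33), and the cofactor Pdcl3 (0.41), were higher with TMM, but with total counts their values were -0.03, -0.22, -0.26, -0.32 and -0.24. Of these 5, only Cct2 and Cct7 passed the test with total counts, as lower in SkM. With total counts Setd3 was 0.24 and Cct6a 0.33, both still higher in SkM, and Vbp1 was 0.10 and did not pass. The calls of these small differences with TMM also depended on single mice: Cct2 did not pass without E0del/+ replicate 1 (0.36) and Cct5 without WT replicate 1 (0.42). Cct7 did not pass without E0del/+ replicate 1 (0.37), WT replicate 1 (0.33) or E0del/+ replicate 3 (0.30), nor with no filter (0.32), and Pdcl3 without E0del/+ replicate 1 (0.42), 2 (0.35) or 3 (0.37).

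Among 17 partners of alpha-actinin at the Z-disc, 9 were higher in SkM, 5 were lower and 3 did not pass (7, 7 and 3 with total counts), with a median of 0.75 (0.0953 with total counts); of all genes 29.8% were higher and 31.5% lower (12.7% and 57.4% with total counts). Of the partners named, most of which were picked by adjusted p in this same comparison, Myoz3, Myoz1 and Nebl differed by the widest margins. Myoz1 and Myoz3, the calsarcins of fast fibres, were at 1782 to 2791 and 308 to 441 CPM in SkM and at 1.84 to 2.28 and 0.174 to 0.461 CPM in LV, with log2 fold changes of 10.49 (SE 0.24) and 10.79 (SE 0.26) and adjusted p = 2.48e-07 and 2.52e-07 by edgeR (9.63 and 8.97 with WT mouse 2 included). Nebl, which encodes nebulette, the nebulin relative of the cardiac Z-disc, was at 0.0572 to 0.432 CPM in SkM and 67.4 to 139 CPM in LV (-7.96, SE 0.18, adjusted p = 2.48e-07, edgeR). Pdlim3 (4.29), Pdlim7 (3.39), Ttn (2.10) and Ldb3 (0.97) were higher, whereas Tcap was 0.49 with TMM (adjusted p = 0.101, edgeR) and -0.16 with total counts. With total counts Ldb3 was 0.32 and did not pass, and Tcap passed with DESeq2 (0.50).

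Of 9 transcription factors and cofactors of actin genes, 7 were higher in SkM, 1 was lower and 1 did not pass (4, 2 and 3 with total counts), with a median of 0.66 (0.0049 with total counts), beside the same shares of all genes, 29.8% higher and 31.5% lower with TMM and 12.7% and 57.4% with total counts. Myocd, the cofactor of serum response factor in heart and smooth muscle, was at 69.7 to 86.4 CPM in the 4 LVs and 0.0572 to 0.576 CPM in SkM (log2 -6.76, SE 0.15, adjusted p = 2.48e-07, edgeR). Mef2c (3.55), Mkl1 (2.80), Tead4 (1.34), Tead1 (1.21) and Srf itself (0.66) were higher in SkM. Mef2d (0.58) and Mkl2 (0.42) were higher with TMM but -0.07 and -0.23 with total counts, where Mkl2 passed as lower and Mef2d did not pass. Srf was 0.0049 with total counts and did not pass. Mkl2 did not pass without E0del/+ replicate 1 (0.43). In none of the 4 lists did a gene pass the edgeR test between the genotypes in LV or in SkM, or in the interaction, and DESeq2 called none of their genes. At an unadjusted p under 0.05 in edgeR, the lists held 8 of 70 genes in LV (11.4%, against 4.2% of all 13420 genes), 1 of 69 in SkM (1.45% against 0.867%) and 4 of 71 in the interaction (5.63% against 3.33%); DESeq2 gave 9, 2 and 4. Without WT LV replicate 2 these were 1 of 70 in LV (1.43% against 0.749%) and 0 of 71 in the interaction (0% against 0.871%).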

How the data were processed

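Poly-A RNA was selected before double-stranded cDNA was made, and libraries were built with a transposase-based kit (Nextera XT). The authors deposited, for each of the 10 libraries, raw counts per gene, with exon coordinates and summed exon length. The RPKM values deposited by the authors equal the raw count divided by that length and by the total of gene counts. The submitters' processing notes name STAR, DESeq2 and mm10, without versions. The counting software, annotation and strand setting are not given in the sources used here.

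CPM was computed from the raw counts. Tests across genes used edgeR 4.0.16 in R 4.3.3: filterByExpr, TMM factors, the quasi-likelihood test and Benjamini-Hochberg adjustment over all genes tested with a threshold of 0.05. SE is the absolute log2 fold change divided by the square root of F, and log2 intervals use it with the degrees of freedom of the test. The fits were tested on simulated counts with the same dispersion for all genes, no differences between mice and no deviating library. That check does not cover these features of the data. SkM and LV were paired by mouse in 4 mice, without WT replicate 2, and genotypes were compared within each tissue. Shares are of counts per kilobase and were compared by exact two-sided permutation. Wilson intervals are at 95%. Python 3.11.15, numpy 2.4.6, pandas 2.3.3, scipy 1.17.1 and matplotlib 3.10.9 were used. With only 2 WT and 3 E0del/+ mice, p-values rest on few animals.

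By the labels, batch and replicate number coincide, so that batches 1 and 2 each hold a WT and an E0del/+ mouse, and the mouse number in the library names pairs the tissues. Over 8646 genes, deviations from the group means correlated at 0.00834 and -0.148 between the paired LVs of batches 1 and 2, at 0.348 and 0.153 between the paired SkM libraries, and at -0.123 to 0.173 between the tissues of a mouse.

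Alternatives were DESeq2 1.42.0, its size factors in edgeR, total counts without TMM, TMM factors without the members and Ttn, no filter, 1 fit over all 10 libraries, replicate blocks, a minimum of 10 counts per library, raw-count shares, all 5 mice, and each library left out. Blocking on Xist expression (over 100 CPM) was added after seeing the data. Named genes are the 9 members, Ttn, the 3 genes nearest to each member in profile and, of each list, the 3 most abundant and up to 5 others past the threshold with the smallest adjusted p. The members and lists were chosen with earlier results of these data known.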

Additional observations from a re-analysis of the deposited data

Results flagged for a closer look

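Levels in WT LV replicate 2, which is outside the paired comparison of the tissues, exceeded the 4 other LVs for 4 of the 9 genes. Actc1 (9438 CPM), Actn2 (2116 CPM) and Acta2 (69.7 CPM) were below the 4 other LVs. The share of all genes that were highest in this library is not given here, so the count is not read as particular to these genes. Acta1 was at 9479.7 CPM there, against 434 to 1482 CPM. Actn3 was at 2787 CPM, against 11.1 to 12.4 CPM. Both also far exceed LV levels in SkM, at 36987.5 to 44397 and 11753 to 13212 CPM. Actb was at 1434 CPM, against 468 to 770.3 CPM in the other LVs and 238 to 371 CPM in SkM. Actn1 was at 113 CPM, against 41.3 to 60.3 CPM in the other LVs and 6.46 to 22.0 CPM in SkM. The levels of Actb and Actn1 in this library were thus above every other library of either tissue. The summed fast fibre level was 37133 CPM in this library and 149 to 171 CPM in the other LVs, but Actb and Actn1 were lower in SkM than in the LVs. The 5 adipose genes were each highest in this LV as well, summing to 279 CPM against 1.83 to 23.7 CPM, as were 4 of the 7 smooth muscle markers (Tagln, Cnn1, Actg2 and Myl9). The part of these transcripts in the 4 values was not tested.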

How the results depend on the processing

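Of 1005 alternative values over 93 results, 908 stayed the same, 70 reversed, 16 were weaker, 7 stronger and 4 moved. Staying the same meant keeping the direction and the side of the threshold, or, for numbers of called genes, staying near the main number. The exact p of shares cannot fall under 0.05 with so few mice, so for shares only the direction was compared. The 7 members called between the tissues kept their calls under the alternatives run. Both genotype comparisons have 2 WT mice, and Actn1 in SkM, at 6.46 to 22.0 CPM, had the fewest counts of the members in 4 of the 5 libraries (Acta2 in E0del/+ replicate 1). Where no library was removed, the cause was not tested.

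With the replicate block, edgeR called 5 genes in LV and 1 in SkM, and no member changed its call between the genotypes. The block reversed the log2 fold change of E0del/+ over WT to -0.079 for Actc1 in LV, and in SkM to 1.01 for Actc1, -0.022 for Acta2, 0.00849 for Actb, 0.0126 for Actn3 and -0.11 for Actn4. DESeq2 called 1 gene in the interaction. Other settings reversed only small genotype values: Actn4 in LV to 0.0118 with total counts, Actb in SkM to 0.000628 with no filter, and Actg1 in SkM to -0.00572 with DESeq2 size factors, -0.00567 with DESeq2, -0.0222 with total counts, -0.00176 with at least 10 counts in every library, -0.0234 with 1 fit over all 10 libraries and -0.046 with the Xist block. Actn3 in SkM went to 0.0249 with the Xist block, and Actn4 in SkM to -0.053 with total counts, -0.00401 with at least 10 counts and -0.0113 with 1 fit.

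Total counts without TMM reversed the tissue contrast of Tcp1 (-0.0304), Cct7 (-0.32), Cct2 (-0.26), Cct5 (-0.22), Pdcl3 (-0.24), Tcap (-0.16), Mef2d (-0.0672) and Mkl2 (-0.23), and the interaction of Actn4 (-0.0653). Without WT LV replicate 2 the interaction reversed for Acta1 (-1.22), Actg1 (-0.12) and Actn3 (-0.15).

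Leaving out each library in turn gave 0 to 578 calls in LV, the higher count without WT replicate 1. The log2 fold changes in LV ranged from -3.51 to 1.07 for Acta1, from -0.0864 to 0.31 for Actc1, from -0.79 to 0.40 for Acta2, from -0.42 to 0.0903 for Actg1, from -8.00 to 0.10 for Actn3 and from -0.61 to -0.25 for Ttn. In SkM they ranged from -0.33 to 0.17 for Acta1, from -1.26 to 2.28 for Actc1, from -0.44 to 1.10 for Acta2, from -0.18 to 0.19 for Actb, from -0.12 to 0.14 for Actg1, from -0.33 to 1.14 for Actn1, from -0.21 to 0.22 for Actn3, from -0.45 to 0.69 for Actn4 and from -0.33 to 0.02004 for Ttn.

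For shares, the difference between the tissues in Actb of Actb plus Actg1 ranged from -2.76 to 1.40 percentage points when each mouse was left out, and was -3.68 with all 5 mice. With each library left out, genotype differences in LV ranged from -43.3 to 2.93 for Acta1 of Acta1 plus Actc1, from -0.381 to 0.299 for Acta2, from -57.5 to 0.00262 for Actn3 of Actn2 plus Actn3 and from -0.478 to 2.65 for Actn1 plus Actn4. In SkM they ranged from -1.66 to 3.34 for Acta1, from -0.0235 to 0.0328 for Acta2, from -0.172 to 0.253 for Actb plus Actg1, from -2.25 to 2.96 for Actb of Actb plus Actg1 and from -0.212 to 0.187 for Actn1 plus Actn4.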

Other observations

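Markers of other cells differed between libraries of 1 tissue. Adipose genes (Adipoq, Plin1, Cfd, Cidec and Lep, with Cfd the most abundant) summed to 279 CPM in WT LV replicate 2 and to 1.83 to 23.7 CPM in the other LVs, where Lep was at 0 in E0del/+ replicate 2 and Lep and Adipoq were at 0 in E0del/+ replicate 3. In SkM they summed to 1122 and 8.69 CPM in WT and to 281, 147 and 1183 CPM in E0del/+. The smooth muscle actin gene Actg2, a marker outside the 9 genes, was at 17.3 CPM in WT LV replicate 2 and at 2.41 to 4.27 CPM in the other LVs. Fibroblast genes (6 of 6 measured) summed to 856 to 1555 CPM in the 5 LVs, with Dcn the most abundant in 4 of them, and to 137 to 482 CPM in SkM, with Col3a1 the most abundant in 4. Leukocyte genes (4 of 5 measured) summed to 98.1 to 184 CPM in LV and 10.8 to 108 CPM in SkM, and Lyz2 was the most abundant in all but WT and E0del/+ SkM replicate 1, where Ptprc was at 39.1 and 80.1 CPM. Atrial genes (4 of 4 measured) summed to 202 to 594 CPM in LV, where Nppa was the most abundant, and to 5.42 to 17.2 CPM in SkM, with Myl7 at 0 in WT SkM replicate 1. In those SkM libraries Myl4, Nppa or Sln was the highest, at 2.67 to 6.66 CPM. Of the blood genes measured (5 of 7), Alas2 had 2.52 to 31.6 CPM and the 4 globin genes had 0 counts in every library. The reason for these 0 counts was not tested, and they are not read as an absence of blood.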
